A study of Mus musculus with 8 samples.

Results

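The genes described are the transcription factor gene Foxo3 and 9 genes that FOXO factors are known to regulate or that are often read together with FOXO targets: Klhl24, Fbxo32, Ccng2, Hbp1, Tob1, Sesn1, Arrdc3, Txnip and Cited2. They were taken by gene symbol from a table of 12193 gene loci, in which each of the 10 has 1 row. All 10 reached at least 1 FPKM (fragments per length of gene, relative to the library total) in at least 2 libraries and were tested among 10874 such genes. The cells are AtT-20, a mouse corticotrope tumour line grown in serum-containing medium, and the series asks how the EGF receptor acts on transcription in them. The EGFR-carrying line was given water (3 h by its label), EGF for 3 h or EGF for 18 h, and the Neo-carrying control line was given water (also 3 h by its label). Each of these 4 groups has 2 RNA-seq libraries. The sources used here give neither the dose of EGF nor the species of the introduced EGFR, nor whether a line is 1 clone or a pool. No Neo library with EGF and no 18 h library with water were analysed here, so the effect of EGF without the introduced receptor was not tested, and time in culture and 18 h of EGF cannot be told apart.

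FOXO proteins are forkhead transcription factors that raise genes of cell cycle arrest, protein breakdown, stress resistance and metabolism. Growth factor receptors restrain them through PI3K and the kinase AKT, which phosphorylates FOXO proteins so that they are exported from the nucleus and held in the cytoplasm by 14-3-3 proteins. This control acts on the protein, and the mRNA level of a FOXO gene is not a measure of it.

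FOXO factors bind a short core motif, and the promoter windows of the genes were searched for 1 form of it, GTAAACA, on either strand. Windows ran from 250 bases before to 50 bases after each start in RefSeq (build GRCm38.p6). Of the 10 genes, 8 had windows, 11 in all, and Fbxo32 and Klhl24 had none. GTAAACA was found for 3 of the 8 genes, Hbp1, Sesn1 and Txnip, and 3.65% of all 32851 windows, or 4.05% of 27025 genes, hold it. These 3 are shown because they hold the motif. The Hbp1 stretch (chr12:31950246-31950495, minus strand) and the Txnip stretch (chr3:96557707-96557956, plus strand) are the 250 bases before the start, and the Sesn1 stretch (chr10:41810586-41810612, plus strand) is 27 bases that begin 13 bases into the transcript. Capitals mark GTAAACA, which appears as TGTTTAC on the printed strand of Sesn1, and in Txnip also a pair of CACGNG copies spaced 5 bases apart. That spacing is the form of a carbohydrate response element, through which glucose acts on Txnip, and was searched after the values were seen.
Hbp1: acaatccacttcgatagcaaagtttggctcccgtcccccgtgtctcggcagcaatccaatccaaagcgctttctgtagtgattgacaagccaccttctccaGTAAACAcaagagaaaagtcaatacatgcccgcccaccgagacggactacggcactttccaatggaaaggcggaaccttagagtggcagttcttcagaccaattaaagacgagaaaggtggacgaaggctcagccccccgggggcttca
Sesn1: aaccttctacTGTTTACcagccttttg
Txnip: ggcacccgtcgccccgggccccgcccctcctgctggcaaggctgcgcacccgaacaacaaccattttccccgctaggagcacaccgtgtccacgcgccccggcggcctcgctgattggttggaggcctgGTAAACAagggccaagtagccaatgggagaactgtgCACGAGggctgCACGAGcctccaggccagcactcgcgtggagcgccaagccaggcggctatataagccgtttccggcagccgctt
The first base of the motif lies at −149 in Hbp1, at 23 in Sesn1 and at −121 in Txnip, counting the base before the start as −1 and the first transcribed base as 1. The pair of CACGNG copies begins at −85 in Txnip, does not overlap GTAAACA, and occurs in 0.0487% of all windows, which belong to 15 genes. A match describes letters in these windows and is not a measured binding site.

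Egfr was 25.9 and 27.5 FPKM in the EGFR-line water libraries, 28.8 and 30.6 FPKM after 3 h of EGF, 31.9 and 30.3 FPKM after 18 h, and 0.227 and 0.0663 FPKM in the Neo water libraries, so the lines are as labelled at this mouse locus. From the smallest steps of FPKM, depth was put at about 50.3 to 58.4 M fragments per library. Only steps that gave 40 to 75 M were kept, which bounds this estimate in advance. Replicates correlated at r = 0.985 to 0.987 across genes on the log2 scale. Of 5 corticotrope markers, Pomc, Pcsk1, Tbx19 and Neurod1 had values. Their sum, mostly Pomc, was 8734 to 8807 FPKM in EGFR-line water and 9305 to 9429 FPKM in Neo water libraries. It was 7432 to 7898 FPKM after 3 h of EGF and 7990 to 8387 FPKM after 18 h. At 18 h against EGFR-line water, Tbx19 (log2 change 0.28, limma adjusted p = 0.00482) and Pcsk1 (0.16, adjusted p = 0.0158) were higher. Pomc (−0.12, adjusted p = 0.206) and Neurod1 (−0.07, adjusted p = 0.231) did not pass. At 3 h Pcsk1 was lower (−0.12, adjusted p = 0.0387) and the other markers with values did not pass. Of the markers looked up for other pituitary cells (6), fibroblasts (4), endothelium (3) and blood (3), 0 had values in the tables used, so these cell types were not analysed here. Small RNAs (648 genes) made up 29.1 to 32.8% of the FPKM total in the 6 EGFR-line libraries, against 39.0% and 33.2% in the Neo water libraries, and their part in the differences between groups was not tested. In bulk RNA, fewer cells that express a gene and less of its RNA per cell cannot be told apart. Nothing in the labels says that the replicates came from separate cultures, so the p-values reflect the spread between the libraries at hand, which may be technical.

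After 3 h of EGF, 7 of the 10 genes fell, namely Klhl24, Fbxo32, Hbp1, Ccng2, Arrdc3, Foxo3 and Sesn1. Txnip rose, and Tob1 and Cited2 did not pass the test. Over all genes tested, 19.7% fell and 11.8% rose at 3 h, 31.5% in all (limma, adjusted p below 0.05), and the median log2 fold change was −0.53 for the 10 genes and −0.04 for all. By size of change, Klhl24 had the 20th lowest fold change of 10874 genes, Fbxo32 the 22nd, Hbp1 the 29th, Ccng2 the 44th and Arrdc3 the 68th, while Foxo3 stood at 207 and Sesn1 at 290. The 10 genes, and the gene lists used below, were chosen with earlier results of these data known. Their shares, medians and ranks beside all genes are therefore descriptions and not tests, here and in the paragraphs below. Fold changes are computed on log2(FPKM + 1) throughout, which understates the change of genes of low FPKM. The 7 decreases passed the test under all 17 alternative settings tried. Scaling moved the direction of calls over the whole table, with 37.5% of calls higher as deposited, 53.1% after median-ratio scaling and 75.4% after scaling to a common sum, and the split of the 10 genes was then 2 higher and 7 lower, and 0 higher and 7 lower.

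After 18 h, 5 of the 10 genes were below water (Fbxo32, Klhl24, Ccng2, Arrdc3 and Cited2) and Txnip was above it, while Foxo3, Hbp1, Sesn1 and Tob1 did not pass. Over all genes, 18.7% were lower and 13.2% were higher at 18 h, 31.9% in all, and the median log2 fold change was −0.17 for the 10 genes and −0.03 for all. Between the EGF times, 8 of the 10 genes were higher at 18 h than at 3 h, Cited2 was lower and Tob1 did not pass, against 17.7% higher and 16.0% lower over all genes, 33.7% in all. The median difference between the times was 0.41 for the 10 genes and 0.01 for all. The comparisons with water share the same water libraries, and 18 h against 3 h shares EGF libraries with each of them, so they are not independent of each other. Of whole-table calls, 41.4% were higher at 18 h against water as deposited, 53.6% after median-ratio and 62.8% after common-sum scaling, and 52.5% were higher at 18 h against 3 h as deposited and 39.4% after common-sum scaling.

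**Figure D1:**
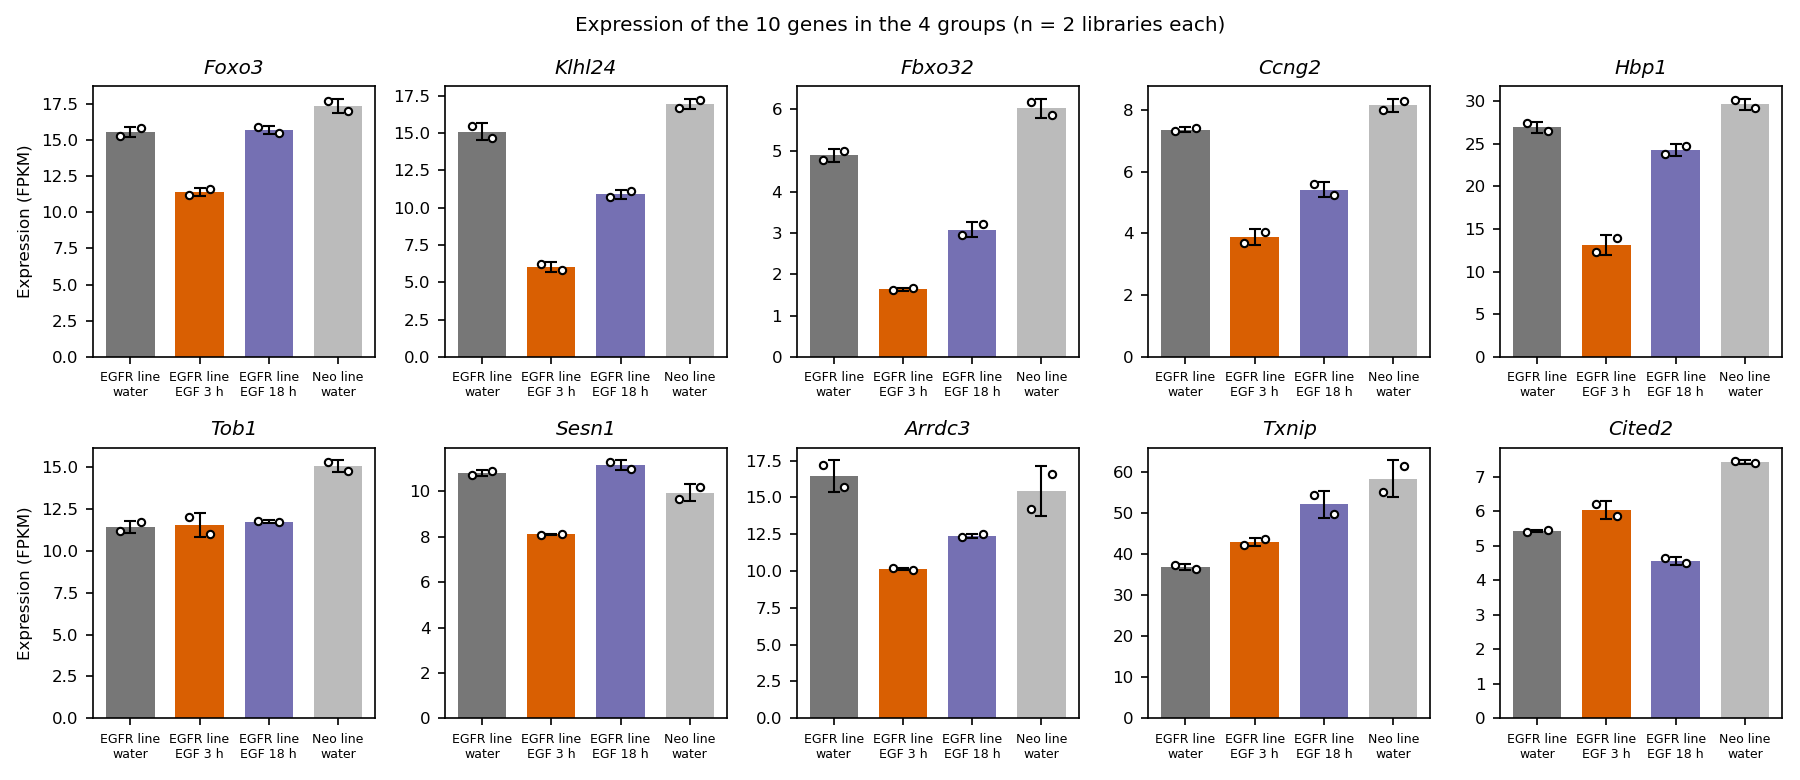
Level of each of the 10 genes in FPKM (linear axis from 0), with 1 point per library and bars at the mean ± SD of 2 libraries for EGFR-line water, EGF 3 h, EGF 18 h and Neo water. Klhl24, Fbxo32, Ccng2 and Hbp1 are lowest in both 3 h libraries and partly back at 18 h, while Txnip climbs across the EGF series and Tob1 stays level within the EGFR line.

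**Figure D2:**
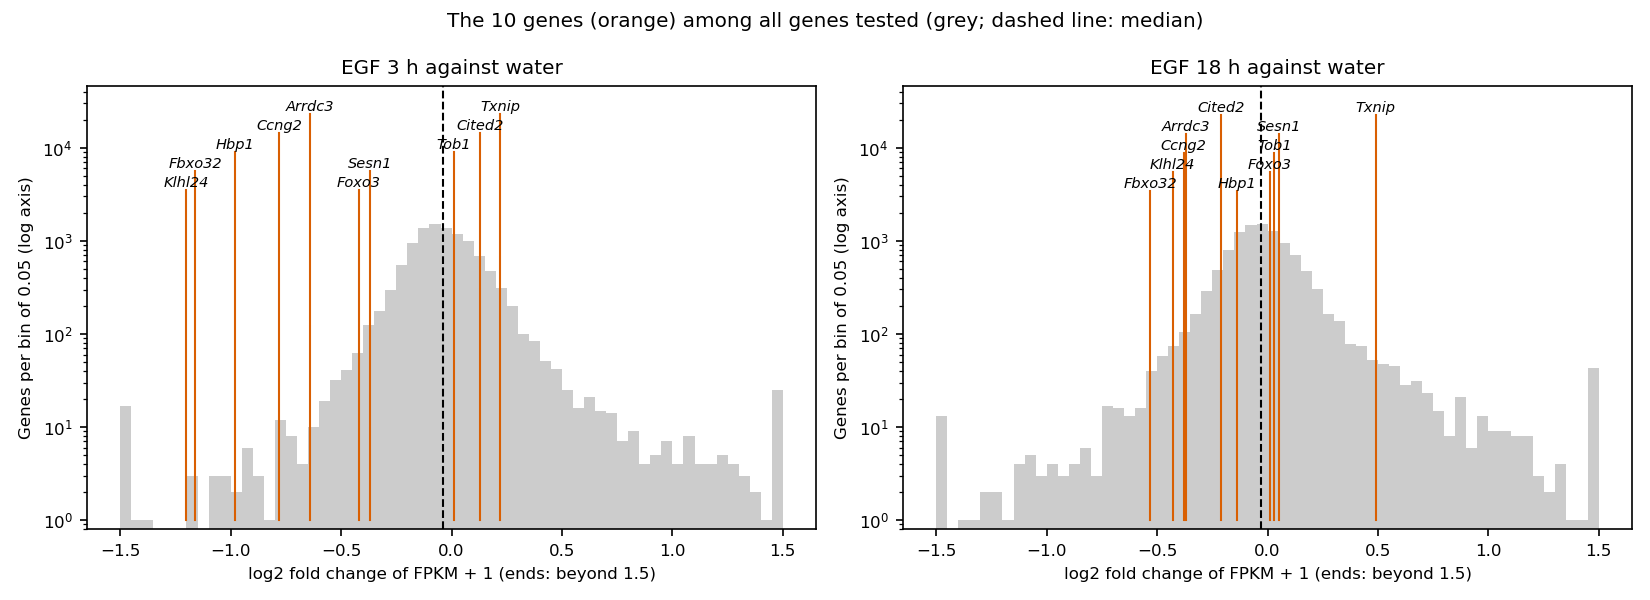
Number of genes per bin of 0.05 (vertical log axis) by log2 fold change (horizontal axis) for all 10874 genes tested, at EGF 3 h and EGF 18 h against EGFR-line water, with the 10 genes marked, the dashed line at the median of all genes and values beyond 1.5 stacked in the end bins. At 3 h Klhl24 (−1.20), Fbxo32 (−1.16) and Hbp1 (−0.98) lie far in the left tail, and at 18 h the same 3 genes lie at −0.43, −0.53 and −0.14.

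Foxo3 (ENSMUSG00000048756, mm10 chromosome 10, 42181841 to 42276755, minus strand) encodes the forkhead factor itself. It measured 15.3 and 15.8 FPKM in the EGFR-line water libraries, 11.2 and 11.6 FPKM after 3 h of EGF, 15.9 and 15.5 FPKM after 18 h, and 17.7 and 17.0 FPKM in the Neo water libraries. Both 3 h libraries lay below all 6 others, the 18 h and water libraries overlapped, and the Neo libraries were the highest. Foxo3 mRNA fell at 3 h by 0.42 ± 0.04 on the log2 scale (SE, adjusted p = 5.57e-04). At 18 h it differed from water by 0.01 with a 95% interval from −0.08 to 0.10 (adjusted p = 0.859), and from 3 h by 0.43 (adjusted p = 5.60e-04). The difference between the lines in water, −0.15 (adjusted p = 0.0691), did not pass, and it passed after median-ratio scaling (adjusted p = 0.0404).

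A pair of genes encodes subunits of ubiquitin ligases. Klhl24 (ENSMUSG00000062901, chromosome 16, 20097554 to 20127744, plus strand) encodes a kelch-like adapter of a CUL3 ligase. It measured 15.5 and 14.7 FPKM in EGFR-line water, 6.24 and 5.80 FPKM after 3 h of EGF, 10.7 and 11.1 FPKM after 18 h, and 16.7 and 17.2 FPKM in Neo water. The 4 groups did not overlap, and both 18 h libraries lay between the 3 h and the water libraries. On log2(FPKM + 1), Klhl24 had the largest decrease of the 10 genes at 3 h. The log2 change was −1.20 ± 0.05 (SE, adjusted p = 1.31e-05). Its lowest value under the 17 alternative settings was −1.31, against −1.52 for Fbxo32, a gene of lower FPKM. At 18 h Klhl24 was still lower than water, at −0.43 (adjusted p = 6.11e-04), though 0.76 above 3 h (adjusted p = 1.50e-04). Fbxo32 (ENSMUSG00000022358, chromosome 15, 58175879 to 58214892, minus strand) encodes atrogin-1, the F-box subunit known for muscle protein breakdown. It measured 4.78 and 4.99 FPKM in EGFR-line water, 1.61 and 1.66 FPKM after 3 h of EGF, 2.96 and 3.21 FPKM after 18 h, and 6.19 and 5.87 FPKM in Neo water. Here too no groups overlapped, and 3 h was lowest and Neo highest. The log2 change was −1.16 ± 0.06 at 3 h (SE, adjusted p = 4.72e-05) and −0.53 at 18 h (adjusted p = 6.38e-04), and 18 h exceeded 3 h by 0.63 (adjusted p = 5.65e-04). Fbxo32 was among the least covered of the 10, with about 619 fragments in its lowest library, a counting error of about 4.02%. Fbxo32 shares 2.67% of its exon bases with an antisense gene, Gm15943, not analysed here.

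Ccng2 and Hbp1 encode brakes on the cell cycle. Ccng2 (ENSMUSG00000029385, chromosome 5, 93267257 to 93276231, plus strand), an unconventional cyclin that restrains proliferation, measured 7.30 and 7.42 FPKM in EGFR-line water, 3.69 and 4.05 FPKM after 3 h of EGF, 5.58 and 5.24 FPKM after 18 h, and 7.995 and 8.29 FPKM in Neo water. Its groups kept the same order as those of Klhl24, without overlap. Ccng2 fell by 0.78 ± 0.05 on the log2 scale at 3 h (SE, adjusted p = 1.91e-04) and by 0.38 at 18 h (adjusted p = 0.00200), with 18 h above 3 h by 0.40 (adjusted p = 0.00238). Hbp1 (ENSMUSG00000002996, chromosome 12, 31926254 to 31950535, minus strand), an HMG-box repressor of cell cycle genes whose promoter window holds GTAAACA, measured 27.4 and 26.5 FPKM in EGFR-line water, 12.3 and 14.0 FPKM after 3 h of EGF, 23.8 and 24.8 FPKM after 18 h, and 30.1 and 29.2 FPKM in Neo water. Its 3 h libraries were far below the rest, and its 18 h libraries were nearly back at water. The log2 change of Hbp1 was −0.98 ± 0.06 at 3 h (SE, adjusted p = 8.10e-05). At 18 h it was −0.14 with a 95% interval from −0.28 to −0.01 (adjusted p = 0.0961). On log2(FPKM + 1), Hbp1 had the largest difference between the times of the 10 genes, 0.84 (adjusted p = 1.87e-04). The highest value of this difference under the 17 alternative settings was 0.93 for Hbp1 and 0.88 for Fbxo32, a gene of lower FPKM. Hbp1 shares 24.6% of its exon bases with Cog5 on the opposite strand. The sources used here do not say whether the libraries keep strand, so the source of part of its FPKM is uncertain. Cog5 itself was 7.98 ± 0.319 FPKM at 3 h and 8.28 ± 0.158 FPKM in EGFR-line water (SD, n = 2), a log2 change of −0.05 (adjusted p = 0.429).

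Sesn1 and Arrdc3 fell less. Sesn1 (ENSMUSG00000038332, chromosome 10, 41810574 to 41908424, plus strand) encodes sestrin 1, a stress-induced inhibitor of mTORC1, and holds the motif just inside its transcript. It measured 10.7 and 10.9 FPKM in EGFR-line water, 8.08 and 8.12 FPKM after 3 h of EGF, 11.3 and 10.9996 FPKM after 18 h, and 9.68 and 10.2 FPKM in Neo water. The 3 h libraries were the lowest, the 18 h libraries the highest, and the Neo libraries lay below EGFR-line water, unlike those of the genes above. Sesn1 fell by 0.37 ± 0.04 on the log2 scale at 3 h (SE, adjusted p = 0.00105), and at 18 h it was 0.05 from water with a 95% interval from −0.05 to 0.14 (adjusted p = 0.406). It was 0.42 higher at 18 h than at 3 h (adjusted p = 6.93e-04). Arrdc3 (ENSMUSG00000074794, chromosome 13, 80883384 to 80896035, plus strand), an alpha-arrestin of receptor trafficking, measured 17.2 and 15.7 FPKM in EGFR-line water, 10.2 and 10.1 FPKM after 3 h of EGF, 12.3 and 12.5 FPKM after 18 h, and 14.2 and 16.6 FPKM in Neo water. Both EGF groups lay below all 4 water libraries, which overlapped between the lines and spread more than for the other genes that fell. The log2 change of Arrdc3 was −0.64 ± 0.07 at 3 h (SE, adjusted p = 0.00121) and −0.37 at 18 h (adjusted p = 0.00777). The 18 h call was lost without water replicate 1 (adjusted p = 0.0526), and the difference of 0.27 between the times (adjusted p = 0.0257) was lost under 6 of 17 settings, among them leaving out any 1 of the 4 EGF libraries, at adjusted p of 0.0504 to 0.135.

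Txnip, Cited2 and Tob1 took other courses. Txnip (ENSMUSG00000038393, chromosome 3, 96557957 to 96561883, plus strand) encodes an alpha-arrestin that binds thioredoxin, limits glucose uptake and is induced by glucose. It measured 37.3 and 36.2 FPKM in EGFR-line water, 42.2 and 43.5 FPKM after 3 h of EGF, 54.3 and 49.7 FPKM after 18 h, and 55.1 and 61.4 FPKM in Neo water. EGFR-line water was the lowest group, EGF libraries were higher at 18 h than at 3 h, and the Neo libraries exceeded all 6 others. Txnip was higher than water by 0.22 ± 0.06 on the log2 scale at 3 h (SE, adjusted p = 0.0331), a call lost under 7 of 17 settings, among them leaving out either library of either group (adjusted p = 0.0527 to 0.142). At 18 h it was higher by 0.49 (adjusted p = 0.00113), a call kept under all 17. Its rise of 0.27 between the times (adjusted p = 0.0136) was lost under 3 settings, common-sum scaling and leaving out EGF 3 h replicate 1 or EGF 18 h replicate 1 (adjusted p = 0.0690 to 0.104). Txnip shares 19.4% of its exon bases with an antisense gene, Gm15441, which was at 0.125 to 0.352 FPKM over the 8 libraries. Txnip holds GTAAACA, as do Hbp1 and Sesn1, while its level at 3 h moved the opposite way. Whether the motif has a part in the course of any of these genes was not tested.

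Cited2 (ENSMUSG00000039910, chromosome 10, 17723228 to 17725673, plus strand), a CBP/p300-binding coregulator that limits HIF1, measured 5.41 and 5.45 FPKM in EGFR-line water, 6.22 and 5.85 FPKM after 3 h of EGF, 4.65 and 4.49 FPKM after 18 h, and 7.46 and 7.39 FPKM in Neo water. The 3 h libraries were above water and the 18 h libraries below it. At 3 h the difference from water, 0.13 ± 0.05 on the log2 scale (SE, adjusted p = 0.0673), did not pass, and it passed after median-ratio scaling and with no variance trend. At 18 h Cited2 was lower, at −0.21 against water (adjusted p = 0.0132) and −0.34 against 3 h (adjusted p = 0.00234). The 18 h call was lost after common-sum scaling and without water replicate 1, water replicate 2 or EGF 18 h replicate 2 (adjusted p = 0.0646 to 0.0865). Cited2 had about 569 fragments in its lowest library, a counting error of about 4.19%. Tob1 (ENSMUSG00000037573, chromosome 11, 94211454 to 94215495, plus strand), an antiproliferative protein tied to the CCR4-NOT deadenylase, measured 11.2 and 11.7 FPKM in EGFR-line water, 12.05 and 11.02 FPKM after 3 h of EGF, 11.8 and 11.7 FPKM after 18 h, and 15.3 and 14.8 FPKM in Neo water. The 6 EGFR-line libraries overlapped and both Neo libraries stood above them. The 95% interval of the Tob1 change ran from −0.11 to 0.12 at 3 h and from −0.08 to 0.15 at 18 h (adjusted p = 0.917 and 0.633).

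**Figure D3:**
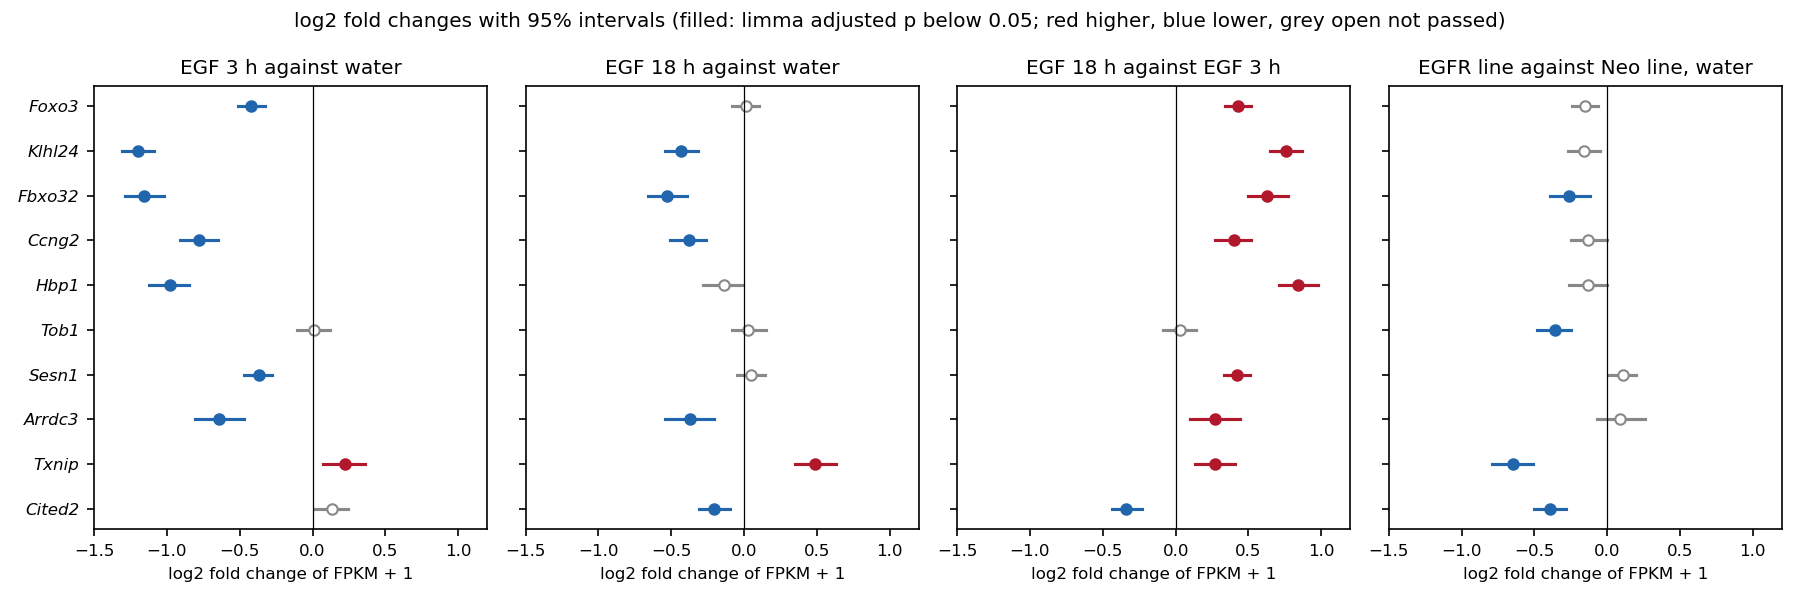
Log2 fold change (horizontal axis, limma on log2(FPKM + 1)) with its 95% interval for the 10 genes in 4 comparisons, EGFR water against Neo water, EGF 3 h and EGF 18 h against EGFR-line water, and EGF 18 h against EGF 3 h. The intervals of Klhl24, Fbxo32, Hbp1 and Ccng2 lie furthest below 0 at 3 h, and the interval of Tob1 spans 0 in all 3 comparisons within the EGFR line.

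A comparison of the EGFR and Neo lines, both in water, asks how they differ without added ligand. In EGFR-line cells 4 of the 10 genes, Txnip, Cited2, Tob1 and Fbxo32, were lower, against 2.90% lower and 3.11% higher (6.01% in either direction) over all genes tested, and 0 of the 10 were higher. Without adjustment for the number of genes, 7 were lower and 1 was higher at p below 0.05, and the median log2 fold change was −0.15 for the 10 genes and 0.01 for all. Txnip averaged 36.8 ± 0.767 FPKM in EGFR-line water and 58.2 ± 4.45 FPKM in Neo water (SD, n = 2), a log2 change of −0.65 ± 0.06 (SE, adjusted p = 0.00206) that passed under all 17 settings. With 18 h of EGF the EGFR line reached 52.0 ± 3.21 FPKM. For Cited2 the log2 change was −0.39 (adjusted p = 0.00656), and for Tob1 it was −0.36 (adjusted p = 0.0100). Cited2 did not pass without water replicate 1 (adjusted p = 0.0614), and Tob1 did not pass without Neo replicate 1, water replicate 1 or water replicate 2 (adjusted p = 0.0520 to 0.0862). Fbxo32, at −0.26 ± 0.06 (SE, adjusted p = 0.0461), lost the call under 13 of 17 settings, among them each of the 8 fits that left out 1 library (adjusted p = 0.0551 to 0.218). The count of 4 became 2 without Neo replicate 1 or water replicate 2 and 1 without water replicate 1. Of whole-table calls, 51.8% were higher as deposited, and 309 of 412 after common-sum scaling. Klhl24 (−0.16, adjusted p = 0.0939), Ccng2 (−0.13, adjusted p = 0.188), Hbp1 (−0.13, adjusted p = 0.198), Sesn1 (0.11, adjusted p = 0.149) and Arrdc3 (0.09, adjusted p = 0.451) did not pass.

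Other genes of the pathway were described from a list of 62 genes, of which 45 could be tested. The list holds 3 other FOXO factors, 16 upstream regulators and 43 genes widely described as FOXO-regulated. Over the 45, 13 fell and 7 rose at 3 h (28.9% and 15.6%, against 19.7% and 11.8% of all genes tested). At 18 h 9 were lower and 7 higher (20.0% and 15.6%, against 18.7% and 13.2% of all genes), which is close to the background. At 3 h the median log2 change of the 45 was −0.05, against −0.04 over all genes. After common-sum scaling the split was 6 lower and 8 higher at 3 h, and 5 lower and 4 higher at 18 h. It was 9 lower and 4 higher at 3 h without water replicate 2. At 18 h it was 7 lower and 2 higher without water replicate 1, 9 lower and 2 higher without water replicate 2, and 6 or 9 lower and 4 higher without EGF 18 h replicate 1 or 2. Among the FOXO factors, Foxo1 rose at 3 h while Foxo3 and Foxo4 fell. Foxo1 measured 1.44 and 1.32 FPKM in EGFR-line water, 2.42 and 2.14 FPKM after 3 h of EGF, 2.03 and 1.76 FPKM after 18 h, and 1.62 and 1.68 FPKM in Neo water. Both EGF groups lay above the water groups, and Foxo1 rose by 0.46 ± 0.08 on the log2 scale at 3 h (SE, adjusted p = 0.00639), where Foxo3 fell. Its difference at 18 h, 0.28 (adjusted p = 0.0350), was lost under 5 settings (adjusted p = 0.0521 to 0.179), namely common-sum scaling, only the 2 groups fitted and leaving out water replicate 1, water replicate 2 or EGF 18 h replicate 1. Foxo4 averaged 4.93 ± 0.0651 FPKM at 3 h and 5.97 ± 0.0992 FPKM in EGFR-line water (SD, n = 2), a decrease (−0.23, adjusted p = 0.00879) lost after common-sum scaling and without water replicate 2 (adjusted p = 0.123 and 0.0599). Foxo6 measured 11.4 and 12.5 FPKM in EGFR-line water, 13.3 and 12.8 FPKM after 3 h, 8.30 and 8.18 FPKM after 18 h, and 12.1 and 11.6 FPKM in Neo water. Its 18 h libraries lay below the 6 others, at −0.48 ± 0.05 against water (SE, adjusted p = 5.74e-04).

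Of 15 upstream regulators tested, 4 rose and 1 fell at 3 h (26.7% and 6.67%, against 11.8% and 19.7% of all genes). At 18 h 3 were lower (20.0%, against 18.7% of all genes) and 0 higher by limma (1 higher and 4 lower at an unadjusted p below 0.05). The count of 4 rises became 1 with only the 2 groups fitted, without water replicate 2 or without EGF 3 h replicate 1, and 2 without EGF 3 h replicate 2. At 18 h, 2 were higher after median-ratio scaling, and the 3 lower became 1 without water replicate 1 or without EGF 18 h replicate 1. The one that fell at 3 h was Sgk1, the serum- and glucocorticoid-induced kinase, a relative of AKT that also phosphorylates FOXO3. Sgk1 measured 58.6 and 58.3 FPKM in EGFR-line water, 20.5 and 20.97 FPKM after 3 h of EGF, 27.97 and 24.9 FPKM after 18 h, and 54.7 and 52.3 FPKM in Neo water. All 4 EGF libraries lay far below the 4 water libraries. The log2 change was −1.45 ± 0.05 at 3 h (SE, adjusted p = 1.02e-05) and −1.12 at 18 h (adjusted p = 2.03e-05). On log2(FPKM + 1) the 3 h change was larger than that of any of the 10 genes. Under the alternative settings it reached −1.49 for Sgk1 and −1.52 for Fbxo32, a gene of lower FPKM. Pik3r1, the regulatory p85 alpha subunit of PI3K, averaged 16.0 ± 0.253 FPKM at 3 h and 11.1 ± 0.371 FPKM in EGFR-line water (SD, n = 2), a log2 change of 0.49 (adjusted p = 0.00153). Skp2, the F-box protein that marks FOXO1 and the CDK inhibitor p27 for breakdown, averaged 6.36 ± 0.277 FPKM at 18 h and 9.08 ± 0.402 FPKM at 3 h (SD, n = 2), a log2 difference of −0.45 (adjusted p = 0.00346).

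Of 27 other FOXO-regulated genes tested, 11 fell and 2 rose at 3 h, 40.7% lower against 19.7% of all genes, with a median log2 change of −0.11. At 18 h, 5 were lower and 6 higher (18.5% and 22.2%, against 18.7% and 13.2% of all genes). After common-sum scaling these became 5 lower and 3 higher at 3 h and 2 lower and 4 higher at 18 h, and without water replicate 1 the 11 became 7. The 6 higher at 18 h became 2 without water replicate 1 or 2, 3 without EGF 18 h replicate 2 and 4 without EGF 18 h replicate 1. Erbb3, a receptor of the EGF receptor family, averaged 3.48 ± 0.0598 FPKM at 3 h and 5.57 ± 0.0332 FPKM in EGFR-line water (SD, n = 2), a log2 change of −0.55 (adjusted p = 3.80e-04), and at 18 h it was 0.45 above 3 h (adjusted p = 9.04e-04). Mxi1, an antagonist of MYC, averaged 7.63 ± 0.250 FPKM at 3 h and 11.4 ± 0.483 FPKM in EGFR-line water (SD, n = 2), at −0.52 (adjusted p = 4.49e-04). Gadd45b, a growth arrest and DNA damage gene, was lower at 3 h (−0.44, adjusted p = 8.24e-04) and lower still at 18 h. It averaged 6.08 ± 0.149 FPKM at 18 h and 11.4 ± 0.320 FPKM in EGFR-line water (SD, n = 2), at −0.81 (adjusted p = 3.41e-05). Not all of the list moved down. Cdkn1a, the CDK inhibitor p21, was higher at 3 h, with 19.1 ± 0.362 FPKM at 3 h and 14.9 ± 0.189 FPKM in EGFR-line water (SD, n = 2), at 0.34 (adjusted p = 8.19e-04). Irs2, an adapter of insulin signalling, was higher at 18 h, with 9.27 ± 0.625 FPKM at 18 h and 6.36 ± 0.0103 FPKM in EGFR-line water (SD, n = 2), at 0.48 (adjusted p = 0.00157). Bbc3, the BH3-only protein PUMA, fell at 3 h and was then 0.48 higher at 18 h than at 3 h (adjusted p = 0.00122). Against water Bbc3 was at −0.28 at 3 h (adjusted p = 0.00936), a call lost under 3 settings. At 18 h it was at 0.20 against water (adjusted p = 0.0273), a call lost under 5. Apart from these 2 calls of Bbc3 against water, each of the calls named here passed under all 17 settings.

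Between the lines in water, 4 of the 45 genes were lower and 2 higher (8.89% and 4.44%, against 2.90% and 3.11% of all genes), and after common-sum scaling 2 were lower. Without Neo replicate 1, Neo replicate 2 or water replicate 2 the split was 3 lower and 0 higher, and without water replicate 1 it was 2 lower and 0 higher. Bnip3, a mitophagy receptor, measured 60.4 and 68.0 FPKM in EGFR-line water and 191 and 201 FPKM in Neo water, a log2 change of −1.60 ± 0.08 (SE, adjusted p = 1.78e-04). Bnip3 aligns over 94.2% of its transcript with a lincRNA, AC160336.1, in the opposite orientation (96.6% identity), and over 31.8 to 32.3% with 3 pseudogenes, so the source of its reads is uncertain. Cdkn1a (−0.32, adjusted p = 0.00410) was lower in the EGFR line and lost its call without water replicate 1 (adjusted p = 0.0521). Ddit4, the mTORC1 inhibitor REDD1, (−0.29, adjusted p = 0.00369) lost its call after common-sum scaling (adjusted p = 0.0874). Gadd45b (0.28, adjusted p = 0.0183) was higher and lost its call under 5 settings, when only the 2 groups were fitted or any 1 of the 4 water libraries was left out (adjusted p = 0.0574 to 0.133).

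**Figure D4:**
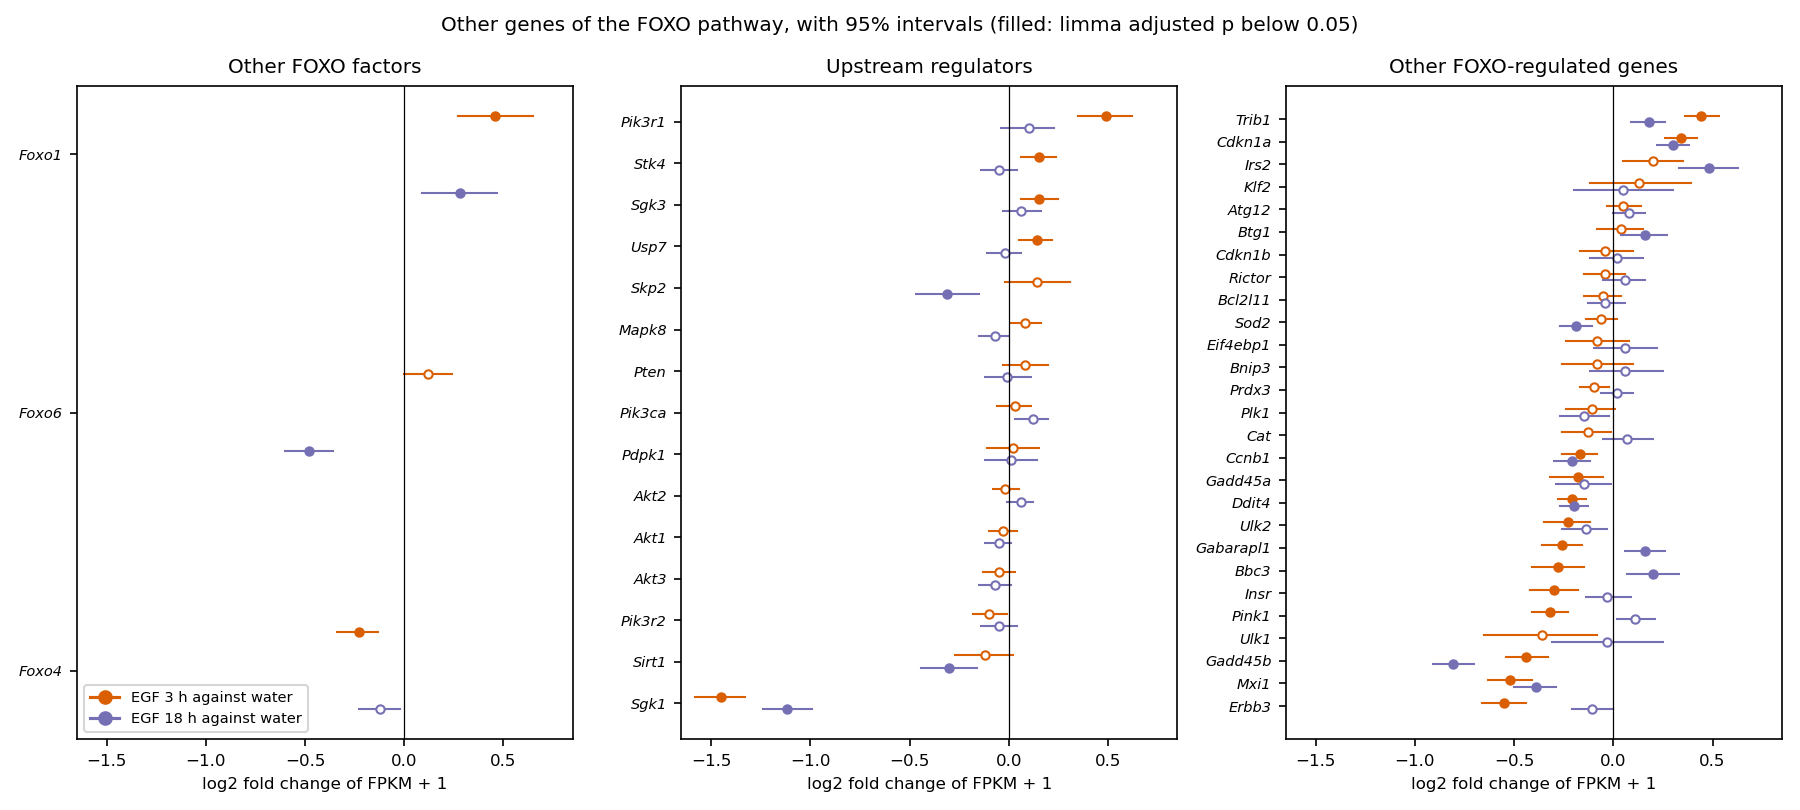
Log2 fold change with its 95% interval (horizontal axis) for the tested genes of the pathway list, split into other FOXO factors, upstream regulators and other FOXO-regulated genes, at EGF 3 h and EGF 18 h against EGFR-line water. Sgk1 lies furthest below 0 at both times (−1.45 and −1.12), and Foxo1 lies above 0 and Foxo4 below it at 3 h.

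The genes whose course over the 8 libraries lay nearest to that of Foxo3 were Atg13 (root mean square difference of centred log2 values 0.0297), Hlcs (0.0357) and Rab40c (0.0374), against a median of 0.222 for all other genes tested. Atg13 measured 8.87 and 8.84 FPKM in EGFR-line water, 6.54 and 6.55 FPKM after 3 h of EGF, 8.93 and 8.69 FPKM after 18 h, and 9.76 and 9.76 FPKM in Neo water. It dipped in both 3 h libraries and was highest in Neo, as Foxo3 was. Of the other 9 genes, Sesn1 was the nearest to Foxo3 (0.1278), and Fbxo32 was the furthest (0.3574). Klhl24, Hbp1, Txnip and Cited2 also lay further from Foxo3 than the median gene (0.2332 to 0.3344). The measure counts the size of a change as well as its course. Nearest to the mean course of all 10 were Ankzf1 (0.0219), Frat1 (0.0484) and Pik3c3 (0.0543), against a median of 0.268. Klhl24, Fbxo32, Txnip and Cited2 lay further from that mean course than this median (0.2701 to 0.2860).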

How the data were processed

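RNA of 8 AtT-20 libraries (4 groups of 2) was sequenced, and the authors deposited 1 FPKM table per library, with 12193 gene loci on mm10. Trimmomatic 0.22, TopHat2 2.0.8, HTSeq 0.5.4 and DESeq (no version) were used per the submitters' processing notes. The sources used here give neither the program that made the FPKM nor whether reads keep strand. FPKM is relative to the library total, so abundant transcripts move all others. Depth was estimated from the smallest FPKM steps of 23 to 31 genes per library (Neo replicate 1 51.5 M fragments, quartiles 48.8 to 55.9). Only genes whose step gave 40 to 75 M fragments were used, so depth could not fall outside that band. Approximate fragments per gene and counting errors rest on this depth and on the longest GENCODE M21 transcript. Counting errors cover counting only.

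The members and lists were chosen with earlier results of these data known. Tests used limma-trend on log2(FPKM + 1) for the 10874 genes that reached 1 FPKM in 2 or more libraries. All 4 groups entered 1 fit, with 4 residual degrees of freedom and 3.29 from the prior. P-values were adjusted by Benjamini-Hochberg within a comparison, at a threshold of 0.05. Named were the 10 members, up to 4 called genes per list and comparison with the largest change (which may be given in other comparisons too), and the 3 genes nearest to Foxo3 and to the members' mean. A list of the members' paralogs and relatives was used in addition to the pathway list. Alternatives were pseudocount 0.1, a filter of 5 FPKM or none, median-ratio or common-sum scaling, a fit of only the 2 groups compared, a fit with no trend, a replicate block and leaving out each library. Restriction to protein-coding genes was added once the data had been seen.

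Transcripts were aligned with minimap2 2.31-r1302 to M21 transcripts, and copies were at least 95% identical over at least 200 bases. Tested on simulated data with 200 of 10874 genes changed, the fit recovered 96.8% of genes changed 1.5-fold at 3 h against water. There 6.73% of its calls were wrong, and 3.48 to 7.14% over the 4 comparisons. In the data 31.5% of genes were called at 3 h, far more than were changed in the simulation. Accuracy with so many changes was not tested. Software was R 4.3.3, limma 3.58.1, Python 3.11.15, NumPy 2.4.6, pandas 2.3.3 and matplotlib 3.10.9.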

Additional observations from a re-analysis of the deposited data

Results flagged for a closer look

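By the limma test of EGF 18 h against EGF 3 h, levels differed for 9 of the 10 genes in the EGFR line. Over all 10874 genes tested, 33.7% differed, 17.7% higher and 16.0% lower at 18 h. The log2 difference was positive for 8 of them, at 0.84 for Hbp1, 0.76 for Klhl24, 0.63 for Fbxo32, 0.43 for Foxo3, 0.42 for Sesn1, 0.40 for Ccng2, 0.27 for Arrdc3 and 0.27 for Txnip. In the first 7 of these the 18 h level came after a decrease at 3 h, and in Txnip after a level above water. Cited2 went the other way, at −0.34. The call of Arrdc3 was lost under 6 of 17 alternative settings and that of Txnip under 3. In all 9 genes both 18 h libraries lay on the same side of both 3 h libraries. With no 18 h water library analysed, time in culture and 18 h of EGF cannot be told apart here.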

How the results depend on the processing

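Of 680 values (10 genes, 4 comparisons, 17 alternatives), 629 kept their direction and side of the threshold, 38 lost the call, 6 gained it and 7 changed sign; 8 of 27 calls were lost somewhere. The changes of sign were all in values near 0 that were not called. Over the fits that left out 1 library, Arrdc3 between the lines ran from −0.01 to 0.20, Tob1 at 3 h from −0.05 to 0.07, Foxo3 at 18 h from −0.01 to 0.03 and Tob1 at 18 h against 3 h from −0.03 to 0.08, and the last was −0.02 after common-sum scaling. Cited2 at 3 h passed after median-ratio scaling and with no variance trend, and Hbp1 at 18 h passed under 3 settings (lowest adjusted p = 0.0300).

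Between the lines, 653 of all genes were called, against 412 after common-sum scaling, 237 with only the 2 groups fitted and 382 with the replicate block; common-sum scaling left 1786 of 3425 calls at 3 h, 1894 of 3467 at 18 h and 2193 of 3663 at 18 h against 3 h. Leaving out 1 library gave 85 to 689 calls between the lines (1 to 3 of the 10 genes), 1445 to 3356 at 3 h (7 to 8), 1795 to 3609 at 18 h (4 to 7) and 1877 to 3645 between the times (7 to 9). The counts of all genes fell by over 1.5 times without any 1 of the 4 water or 2 EGF 18 h libraries between the lines, without water replicate 1, water replicate 2 or EGF 3 h replicate 1 at 3 h, without any 1 of the 4 libraries compared at 18 h, and without EGF 3 h replicate 1 or either EGF 18 h library between the times. The cause was not tested; a group is then left with 1 library, assumed to vary like the others.

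The differences between replicates 1 and 2 correlated at r = −0.17 to 0.31 between groups, highest between EGF 18 h and Neo water. These values do not settle whether libraries with the same replicate number were handled together, and the labels do not say. The replicate block ended the calls of Fbxo32 between the lines (adjusted p = 0.0714) and Txnip at 3 h (adjusted p = 0.0527) and no other call among the 10. With 2 libraries a group, small differences are beyond the precision of these data.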

Other observations

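Relatives of the 10 genes moved in both directions. Of 19 paralogs and family members listed, 15 were tested; at 3 h of EGF 5 fell and 2 rose (13.3% higher and 33.3% lower, against 11.8% and 19.7% of all genes; 2 higher and 1 lower after common-sum scaling, and 1 higher and 2 lower without water replicate 2), and at 18 h 3 were lower and 3 higher (20.0% each, against 18.7% and 13.2% of all genes). The 18 h split was 1 lower and 4 higher after median-ratio scaling and 1 lower and 1 higher after common-sum scaling. It was 1 lower and 0 higher without water replicate 1 or 2, 1 lower and 1 higher without EGF 18 h replicate 1, and 1 lower and 2 higher without EGF 18 h replicate 2. Between the lines 0 were called by limma, against 6.01% of all genes (2 higher and 2 lower at an unadjusted p below 0.05), and 2 were lower after median-ratio scaling or with protein-coding genes only. Fbxo25, an F-box paralog of Fbxo32, measured 27.9 and 27.0 FPKM in EGFR-line water, 20.3 and 19.0 FPKM after 3 h of EGF, 24.5 and 24.8 FPKM after 18 h, and 26.9 and 28.1 FPKM in Neo water. Its 3 h libraries were the lowest, at −0.47 ± 0.04 on the log2 scale (SE, adjusted p = 5.07e-04), and 18 h was 0.31 above 3 h (adjusted p = 0.00228).

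Btg2, an antiproliferative relative of Tob1, averaged 43.4 ± 0.850 FPKM at 3 h and 51.0 ± 2.07 FPKM in EGFR-line water (SD, n = 2), a decrease (−0.23, adjusted p = 0.00510) lost after common-sum scaling (adjusted p = 0.123). Tob2, the closest relative of Tob1, averaged 3.93 ± 0.108 FPKM at 18 h and 4.65 ± 0.0157 FPKM in EGFR-line water (−0.20, adjusted p = 0.0367), and its call was lost under 6 of 16 settings, both rescalings and each fit without 1 of these 4 libraries (adjusted p = 0.0733 to 0.148). Among the alpha-arrestins, Arrdc2 was higher at 18 h (6.32 ± 0.130 FPKM) than in EGFR-line water (5.02 ± 0.0252 FPKM), at 0.28 (adjusted p = 0.0128), and this was lost under 3 settings, without water replicate 1, water replicate 2 or EGF 18 h replicate 1 (adjusted p = 0.0573 to 0.0721). Arrdc1 was higher at 18 h (18.1 ± 0.623 FPKM) than at 3 h (14.1 ± 0.0854 FPKM), at 0.34 (adjusted p = 0.0113), and this was lost without EGF 3 h replicate 1 or EGF 18 h replicate 1 (adjusted p = 0.0544 to 0.0632).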
